A study of Mus musculus with 10 samples.

Results

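Of the 54347 gene records in the table, 10 were examined here: the clock loop genes Arntl, Clock, Npas2, Nfil3, Per1, Per2, Per3, Nr1d1 and Dbp, and Usp2, a ubiquitin peptidase gene with a daily rhythm. They were taken by symbol. The set was put together because Usp2 ranked 3 of 13733 genes by p in the comparison of knockout with wild type mice, so that this comparison is given for the members as a description without a test. All 10 members passed the filter on low counts.

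The RNA came from iBAT, the brown fat that lies in a pad across the upper back (interscapular) and burns fuel for warmth. All 10 mice were 12 weeks old, of the C57BL/6N background, fed chow and kept alone at 4 °C for 24 h before dissection. In 5 of them (ΔGm15551, replicates 1, 2, 4, 5 and 7) a CRISPR/Cas9 deletion had removed exon 1 of the lncRNA gene Gm15551, and 5 wild type mice (replicates 2, 3, 5, 6 and 7) served as controls. The knockout line rests on 1 described deletion, made in the whole animal and backcrossed to wild type, and the labels give both groups the same strain name. Each replicate has a mouse number of its own. The hour at which each mouse was dissected and the sex of each mouse are not given in the sources used here, and either may differ between the groups. Wild type replicates 5, 6 and 7 have mouse numbers of a separate series that holds no ΔGm15551 mouse, so that in part series and genotype cannot be told apart.

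The circadian clock is a feedback loop of transcription factors that runs in most cells, brown adipocytes included. BMAL1 (the product of Arntl) pairs with CLOCK or its paralog NPAS2 and switches on genes with E-boxes, among them the Per genes, Nr1d1 and Dbp. PER proteins block that pair, REV-ERBα (the product of Nr1d1) represses Arntl and Nfil3 through ROR elements, and DBP and NFIL3 act as activator and repressor on the same D-box sites. Activator genes such as Arntl therefore peak at the opposite time of day from Dbp and the Per genes. In brown fat the clock is known to bear on the daily course of heat production.

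Sequences around the transcription starts are shown first, and were searched for the elements through which the loop is known to be wired. Windows of 300 bases, most of them upstream of the start (RefSeq, GRCm38.p6), were found for 9 of the 10 members, 13 windows in all, and Per2 had no entry. The 6-base E-box CACGTG, the E-box variant CACGTT, the D-box as TTATGTAA or TTACGTAA, the ROR element core TAGGTCA and the cAMP response element TGACGTCA were searched on both strands. The motifs overlap in none of the windows shown, and capitals mark the matches. Dbp and Usp2, at chr7:45704997-45705296 and chr9:44084670-44084969, held none of these letters, and neither did the windows of Clock and Npas2. The shorter TGACGT, part of the cAMP response element, occurred 4 bases before the Usp2 start and in the second window of Per1, and in 7.51% of all windows. The windows of Usp2, Npas2 and Per1 and the third window of Clock lie wholly inside their genes as GENCODE draws them.

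The 2 windows with a ROR element core are those of Arntl (chr7:113207261-113207560, plus strand, the second of its windows) and Nfil3 (chr13:52980990-52981289, minus strand, match on the opposite strand and so read as TGACCTA). The core occurred in 2.61% of all 32851 promoter windows. It starts 30 bases after the Arntl start and 12 bases before the Nfil3 start.
Arntl: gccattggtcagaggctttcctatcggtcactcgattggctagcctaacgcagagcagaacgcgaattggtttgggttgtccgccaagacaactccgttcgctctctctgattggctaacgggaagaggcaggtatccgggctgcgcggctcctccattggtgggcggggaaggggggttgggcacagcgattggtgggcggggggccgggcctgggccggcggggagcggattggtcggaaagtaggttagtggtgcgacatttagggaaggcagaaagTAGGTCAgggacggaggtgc
Nfil3: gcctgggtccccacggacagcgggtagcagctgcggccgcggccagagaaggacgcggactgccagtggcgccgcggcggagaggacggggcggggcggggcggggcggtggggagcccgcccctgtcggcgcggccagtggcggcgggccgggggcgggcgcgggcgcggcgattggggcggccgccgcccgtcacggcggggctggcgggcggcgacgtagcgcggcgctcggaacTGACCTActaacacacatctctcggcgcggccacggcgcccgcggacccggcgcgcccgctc

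The windows of Per1 (chr11:69098699-69098998, plus strand, the first of its windows), Nr1d1 (chr11:98775328-98775627, minus strand) and Per3 (chr4:151044616-151044915, minus strand) are shown for the E-box and the D-box. Per1 held 1 E-box, a motif present in 7.15% of all windows. Nr1d1 held 1 copy of the variant CACGTT, here as AACGTG, which 4.68% of all windows had. Per3 held 2 copies of the D-box TTATGTAA, 205 and 158 bases before the start, and 0.938% of all windows had at least 1.
Per1: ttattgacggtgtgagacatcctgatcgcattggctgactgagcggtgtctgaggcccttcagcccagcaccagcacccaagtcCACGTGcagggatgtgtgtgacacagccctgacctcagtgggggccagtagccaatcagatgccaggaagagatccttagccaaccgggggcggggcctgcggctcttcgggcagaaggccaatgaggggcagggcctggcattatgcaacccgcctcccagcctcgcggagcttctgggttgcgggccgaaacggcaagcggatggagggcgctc
Nr1d1: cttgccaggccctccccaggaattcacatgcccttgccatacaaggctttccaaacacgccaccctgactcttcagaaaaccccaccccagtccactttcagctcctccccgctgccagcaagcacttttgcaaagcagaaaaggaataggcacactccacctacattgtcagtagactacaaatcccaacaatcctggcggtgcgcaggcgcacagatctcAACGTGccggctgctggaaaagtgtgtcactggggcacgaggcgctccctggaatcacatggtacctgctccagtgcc
Per3: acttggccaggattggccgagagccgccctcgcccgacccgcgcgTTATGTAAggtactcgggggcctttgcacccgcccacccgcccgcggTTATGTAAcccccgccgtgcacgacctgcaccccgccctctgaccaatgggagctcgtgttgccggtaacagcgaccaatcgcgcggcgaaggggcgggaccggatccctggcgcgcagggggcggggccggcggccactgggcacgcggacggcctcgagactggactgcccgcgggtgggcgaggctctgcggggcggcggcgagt

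The libraries held 9680976 to 15771170 counts. The targeted lncRNA Gm15551 had 0 counts in all 5 ΔGm15551 mice and 16 counts summed over the wild type mice, where replicate 7 also had 0. All 8 brown adipocyte markers were counted in every mouse, and the mean of Ucp1, the uncoupling protein gene, was 9134 ± 2142 CPM for ΔGm15551 and 8244 ± 1058 CPM for wild type mice (SD, n = 5 each; CPM are counts scaled to a common library size). The log2 fold change of ΔGm15551 against wild type was 0.15 for Ucp1, 0.05 for Elovl3, 0.01 for Prdm16, 0.10 for Cox8b and 0.50 for Adrb3. It was -0.03 for Cidea, -0.08 for Dio2 and -0.07 for Ppargc1a. In edgeR's quasi-likelihood test the adjusted p of all 8 was 0.99998, and Adrb3 had an unadjusted p of 0.00253. The libraries differed widely in muscle RNA. The 10 skeletal muscle genes took 0.000108% to 0.158% of the counts in ΔGm15551 mice and 0.000133% to 0.263% in wild type mice, and 3 of the 10 were counted in every mouse. In tissue RNA, fewer cells of a type and less RNA per cell cannot be told apart.

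Levels were first ordered per length, as CPM per kb of merged exons. Nr1d1 was the most abundant member at 41.7 CPM per kb, followed by Usp2 at 19.3, Dbp at 13.9, Per1 at 11.1 and Nfil3 at 8.30. Per2 (4.66 CPM per kb), Clock (3.04), Per3 (2.10), Arntl (0.833) and Npas2 (0.186) followed. Nr1d1 lay above Usp2 in 10 of 10 mice and their ranges did not overlap. All other neighbours in this order had overlapping ranges, and Dbp exceeded Per1 in only 6 of 10 mice. Arntl exceeded Npas2 in 10 of 10 mice. By mean level the activators Arntl and Npas2 were thus the lowest members, and the repressor Nr1d1 the highest. The activator Clock, however, lay above the repressor Per3, so the order did not divide activators from repressors.

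**Figure D1:**
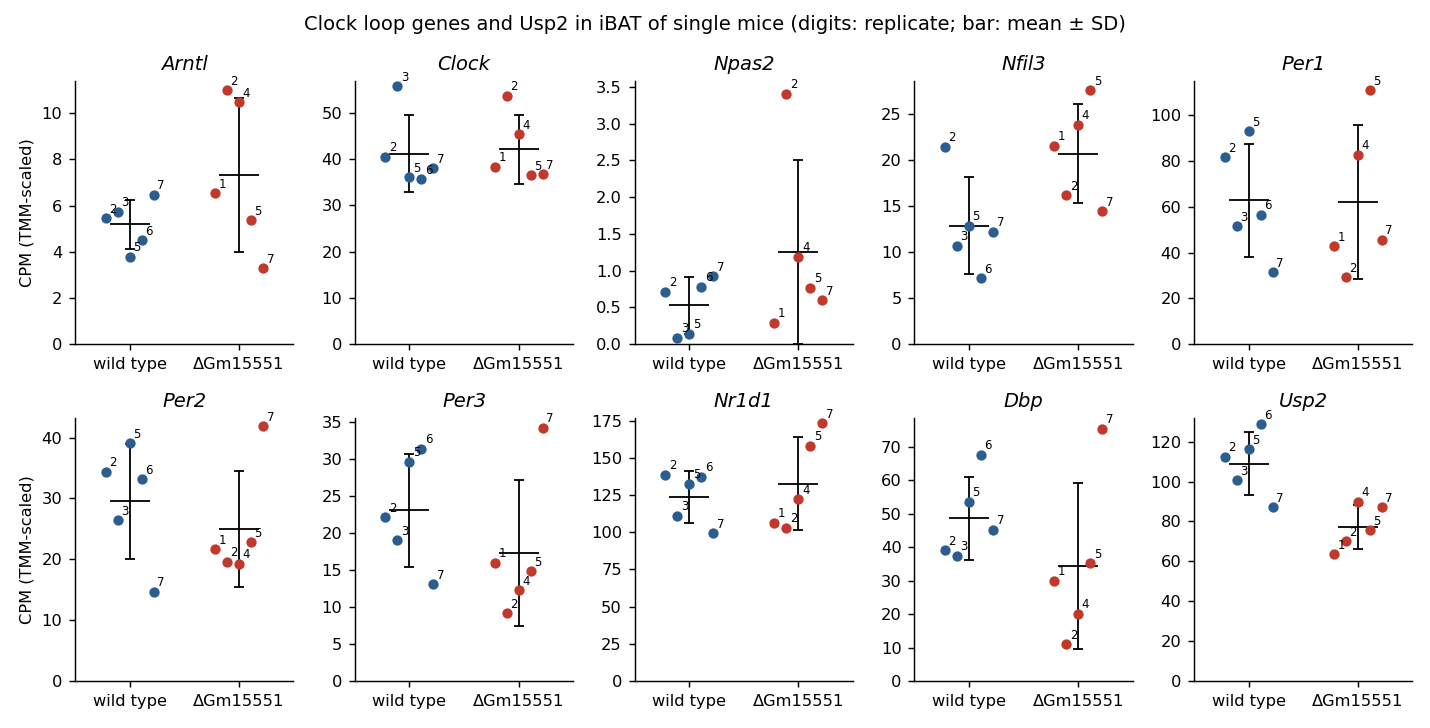
Expression of the 10 members by mouse, in TMM-scaled CPM on linear axes from 0; each point is 1 mouse with its replicate number, and the bars give the mean ± SD of 5 mice. In Dbp, Per2 and Per3 the highest point of all belongs to ΔGm15551 replicate 7, and Usp2 shows 3 ΔGm15551 mice below all wild type mice.

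Usp2 (ENSMUSG00000032010.15, chr9:44067021-44095627, plus strand) encodes a ubiquitin-specific peptidase known to act on clock proteins. It measured 63.7, 70.2, 89.9, 75.5 and 87.2 CPM in ΔGm15551 replicates 1, 2, 4, 5 and 7 and 112, 101, 116, 129 and 87.1 CPM in wild type replicates 2, 3, 5, 6 and 7. The ΔGm15551 replicates 1, 2 and 5 were below all wild type mice, and the overlap came from wild type replicate 7, the wild type mouse with the lowest value. The log2 fold change of ΔGm15551 against wild type (log2FC) was -0.50 (SE 0.13), and it ran from -0.57 to -0.43 when single mice were left out. Of its merged exon length, 4.15% overlaps Gm39325 and Gm49380 on the other strand, and whether the counting used strand is not stated.

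Dbp (ENSMUSG00000059824.12, chr7:45705088-45710203, plus strand), the D-box activator and a direct output of the loop, had the widest range of the members after Npas2. It measured 30.01, 11.01, 20.1, 35.3 and 75.5 CPM in ΔGm15551 replicates 1, 2, 4, 5 and 7 and 39.0, 37.5, 53.6, 67.7 and 45.3 CPM in wild type replicates 2, 3, 5, 6 and 7. The ΔGm15551 group held both the lowest mouse (replicate 2) and the highest (replicate 7), a 6.85-fold range, and its other 3 mice were also below all wild type mice. The log2FC was -0.50 (SE 0.43). It was -1.02 without ΔGm15551 replicate 7, -0.28 without ΔGm15551 replicate 2 and -0.15 without wild type replicates 5, 6 and 7. Sphk2, on the other strand, overlaps 18.0% of the merged exon length of Dbp.

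Per3 (ENSMUSG00000028957.12, chr4:151003652-151044665, minus strand) and Per2 (ENSMUSG00000055866.9, chr1:91415982-91459324, minus strand) encode period proteins. Per3 measured 16.0, 9.16, 12.3, 14.8 and 34.2 CPM in ΔGm15551 replicates 1, 2, 4, 5 and 7 and 22.1, 19.0, 29.6, 31.4 and 13.0 CPM in wild type replicates 2, 3, 5, 6 and 7. Per2 measured 21.6, 19.6, 19.3, 22.9 and 41.9 CPM in the same ΔGm15551 mice and 34.4, 26.5, 39.1, 33.1 and 14.7 CPM in the same wild type mice. In both genes ΔGm15551 replicate 7 was the highest mouse of all and wild type replicate 7 the lowest wild type mouse, and the groups overlapped. The log2FC was -0.42 (SE 0.34) for Per3 and -0.24 (SE 0.26) for Per2. Without ΔGm15551 replicate 7 the values were -0.83 and -0.51. Other mice moved them too: Per3 was at -0.26 without ΔGm15551 replicate 2 and -0.25 without wild type replicates 5, 6 and 7, and Per2 was at -0.12 without wild type replicate 5 and -0.41 without wild type replicate 7.

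Per1 (ENSMUSG00000020893.17, chr11:69095217-69109960, plus strand), the period gene that also responds acutely to hormones and to cAMP, was highest in ΔGm15551 replicate 5 (111 CPM) and wild type replicate 5 (93.0 CPM) and lowest in ΔGm15551 replicate 2 (29.3 CPM) and wild type replicate 7 (31.5 CPM). Its log2FC was -0.01 (SE 0.38), with a range from -0.33 to 0.17 when single mice were left out. Nr1d1 (ENSMUSG00000020889.11, chr11:98767932-98775333, minus strand), the REV-ERBα gene, lay between 99.5 and 173 CPM, with ΔGm15551 replicates 5 and 7 above all wild type mice (log2FC 0.10, SE 0.16, and -0.02 without ΔGm15551 replicate 7). Thra, on the other strand, overlaps 8.55% of its merged exon length.

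Among the genes of the opposite phase, Arntl (ENSMUSG00000055116.8, chr7:113207465-113314126, plus strand) measured 6.53, 11.01, 10.5, 5.37 and 3.28 CPM in ΔGm15551 replicates 1, 2, 4, 5 and 7 and 5.46, 5.74, 3.79, 4.49 and 6.47 CPM in wild type replicates 2, 3, 5, 6 and 7. These levels rested on 44 to 155 counts. Again ΔGm15551 mice stood at both ends, now with replicate 7 lowest and replicate 2 highest. The log2FC was 0.51 (SE 0.29), and 0.31 without ΔGm15551 replicate 2. Clock (ENSMUSG00000029238.11, chr5:76209868-76304792, minus strand) lay between 35.7 and 55.8 CPM and was highest in wild type replicate 3 and ΔGm15551 replicate 2 (log2FC 0.03, SE 0.15). Without single mice its log2FC ran from -0.07 (without ΔGm15551 replicate 2) to 0.17 (without wild type replicate 3), and it was -0.19 without wild type replicates 5, 6 and 7. The Clock paralog Npas2 (ENSMUSG00000026077.15, chr1:39193731-39363236, plus strand) was barely detected, with 1 to 48 counts. Its log2FC of 1.26 (SE 0.67) fell to 0.44 without ΔGm15551 replicate 2, the mouse with 48 counts.

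Nfil3 (ENSMUSG00000056749.7, chr13:52967209-52981073, minus strand), the D-box repressor, measured 21.6, 16.2, 23.9, 27.6 and 14.5 CPM in ΔGm15551 replicates 1, 2, 4, 5 and 7 and 21.5, 10.7, 12.9, 7.16 and 12.2 CPM in wild type replicates 2, 3, 5, 6 and 7. Wild type replicate 2 lay among the ΔGm15551 mice, and the other 4 wild type mice were below all of them. The log2FC was 0.69 (SE 0.26), with a range from 0.53 to 0.95 when single mice were left out and 0.37 without wild type replicates 5, 6 and 7.

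Over the 10 members the estimates were split, 5 higher and 5 lower in ΔGm15551, with a median log2FC of 0.01 against -0.001 over all genes tested. The median absolute log2FC was 0.46 for the members and 0.09 for all genes. At an unadjusted p under 0.05 there were 2 members, Usp2 (lower) and Nfil3 (higher), where 1.6% of all genes tested had such a p (0.641% lower and 0.961% higher in ΔGm15551). The members were chosen on this contrast, so nothing is read from that count or from the medians of the members against those of all genes. In none of the 10 members were the groups free of overlap, and 0.32% of all genes tested were (edgeR's quasi-likelihood test gave 0 genes at an adjusted p under 0.05, 220 at an unadjusted p under 0.05, and the DESeq2 Wald test 0 and 322).

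**Figure D2:**
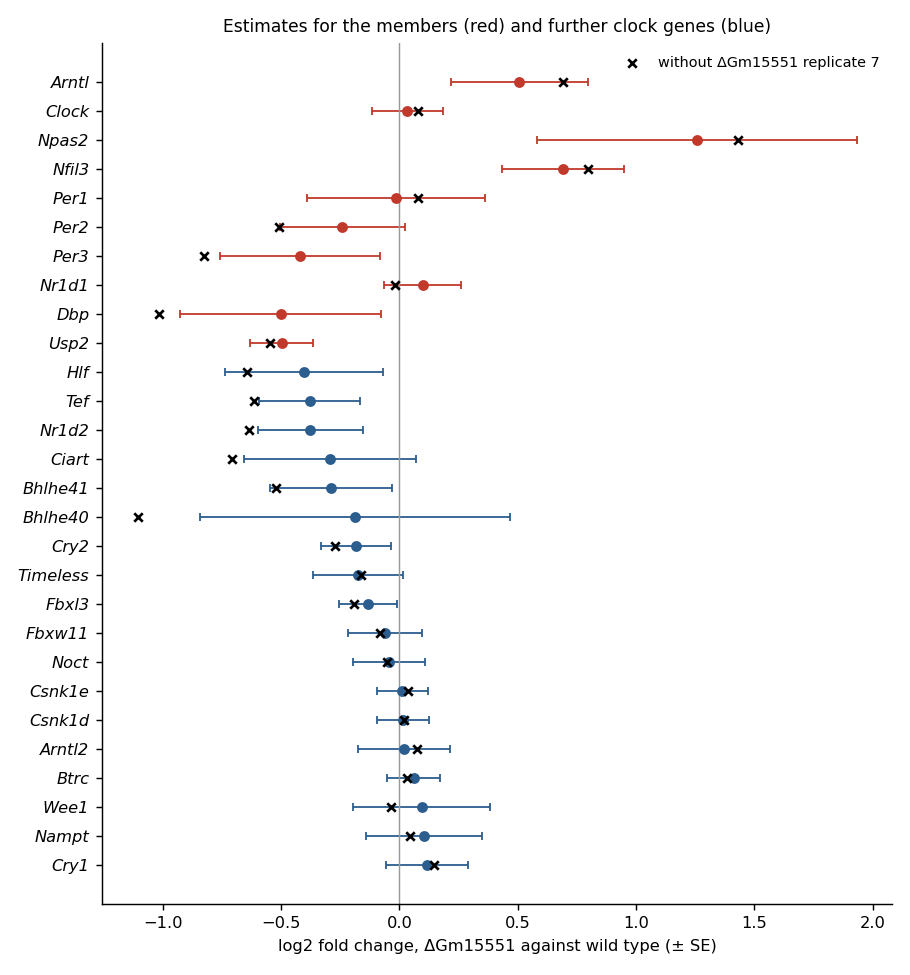
Estimated log2 fold change of ΔGm15551 against wild type (x axis, log2 units; bars, ± SE of the quasi-likelihood fit) for the 10 members and most of the 20 further clock genes tested; crosses are the estimates without ΔGm15551 replicate 7. The cross lies to the left of the point in Dbp (-1.02 against -0.50) and Per3 (-0.83 against -0.42), while Usp2 moves little (-0.54 against -0.50).

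Other genes of the clock were compared as a list of 22, of which 20 were tested. In edgeR's quasi-likelihood test 0 were higher and 0 lower at an adjusted p under 0.05, and 0 had an unadjusted p under 0.05. By estimate 7 were higher and 13 lower, with a median log2FC of -0.12. The smallest p belonged to Tef, a D-box activator related to Dbp (117.5 ± 41.3 CPM, against 152.8 ± 31.2 CPM for wild type mice, n = 5 each; log2FC -0.38 with an SE of 0.21; edgeR's unadjusted p = 0.0975). Next was Nr1d2, the REV-ERBβ gene (40.2 ± 16.0 and 52.2 ± 8.02 CPM; log2FC -0.38 with an SE of 0.22; edgeR's unadjusted p = 0.112). The adjusted p of both was 0.99998 in edgeR and ran from 0.835 to 0.99999 over the alternatives.

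ΔGm15551 replicate 7 changed the counts of this list too. Without it, 6 genes had an unadjusted p under 0.05, all lower in ΔGm15551, among them the repressors Nr1d2 (log2FC -0.64), Ciart (-0.71), Bhlhe40 (-1.11) and Bhlhe41 (-0.52), and Tef (-0.61). Over all 13949 genes tested in that fit, 1.85% had such a p (0.817% lower in ΔGm15551). The omission of any other single mouse left 0 of the 20 genes at such a p, except for 1, Tef, without wild type replicate 7. The adjusted p of the 6 genes was 0.99987 in edgeR, so that 0 passed there as well.

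The levels of the further clock genes were likewise read per length. Among the repressors Bhlhe40 was highest (11.8 CPM per kb) and Bhlhe41 lowest (1.70), and of the D-box factors Tef stood at 17.2 and Hlf at 3.39. Of the kinases and ubiquitin ligases that set the stability of PER and CRY proteins, Csnk1d was highest (15.9 CPM per kb) and Fbxl21 lowest (0.0605). Nampt, which makes an NAD precursor, was the highest output gene (36.8 CPM per kb) and Wee1, a cell cycle kinase gene, the lowest (0.623). The Arntl paralog Arntl2 was at 0.839 CPM per kb, close to Arntl itself.

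Per1 is also known to respond to glucocorticoids, so 8 genes known for that response were read beside the members. Of the 8 tested, 0 were higher and 0 lower at an adjusted p under 0.05, and 0 had an unadjusted p under 0.05 in edgeR's quasi-likelihood test. The smallest p was that of Tsc22d3, which encodes a leucine zipper protein (33.2 ± 7.42 and 40.3 ± 5.83 CPM; log2FC -0.28 with an SE of 0.16; edgeR's unadjusted p = 0.0980), followed by the metallothionein gene Mt2 (log2FC 0.19 with an SE of 0.20; edgeR's unadjusted p = 0.369). Mt2 was also the highest of the list per length (102.4 CPM per kb) and Fkbp5, a chaperone gene, the lowest (2.17). The median log2FC of the list was -0.08. Without ΔGm15551 replicate 5, 1 gene of the list had an unadjusted p under 0.05, again Tsc22d3 (log2FC -0.38, edgeR's adjusted p = 0.99993).

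Differences between mice of 1 genotype were then set beside those of other genes. The SD of log2 CPM within genotype was 0.76 for Dbp, 0.70 for Per1, 0.61 for Per3, 0.54 for Arntl, 0.51 for Per2 and 0.48 for Nfil3, against a median of 0.26 over the 13091 genes averaging 1 CPM or more. Dbp was more variable than 97.3% of these genes and Per1 than 96.3%. Clock (0.25) and Nr1d1 (0.28) lay near the median. Usp2 had an SD of 0.21, with 34.5% of the genes below it, but it was picked for its low p, which a small SD favours, so nothing is read from its place. Npas2, at under 1 CPM, had an SD of 1.07 and was not ranked.

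Whether members rose and fell together from mouse to mouse was asked on log2 CPM after subtracting the mean of each genotype, which takes out the contrast the set was chosen on. Of the 45 pairs of members, 8 were correlated at an adjusted p under 0.05 (exact permutation test over the 14400 reorderings of mice within genotype, two-sided, Benjamini-Hochberg over the 45 pairs), 4 positively and 4 negatively. All 4 negative pairs set an activator against Dbp or a period gene, and all 4 positive pairs joined Per2, Per3, Nr1d1 and Dbp. The share of pairs over all genes that would pass the same test was not computed. How far 8 of 45 exceeds that share is therefore not known.

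**Figure D3:**
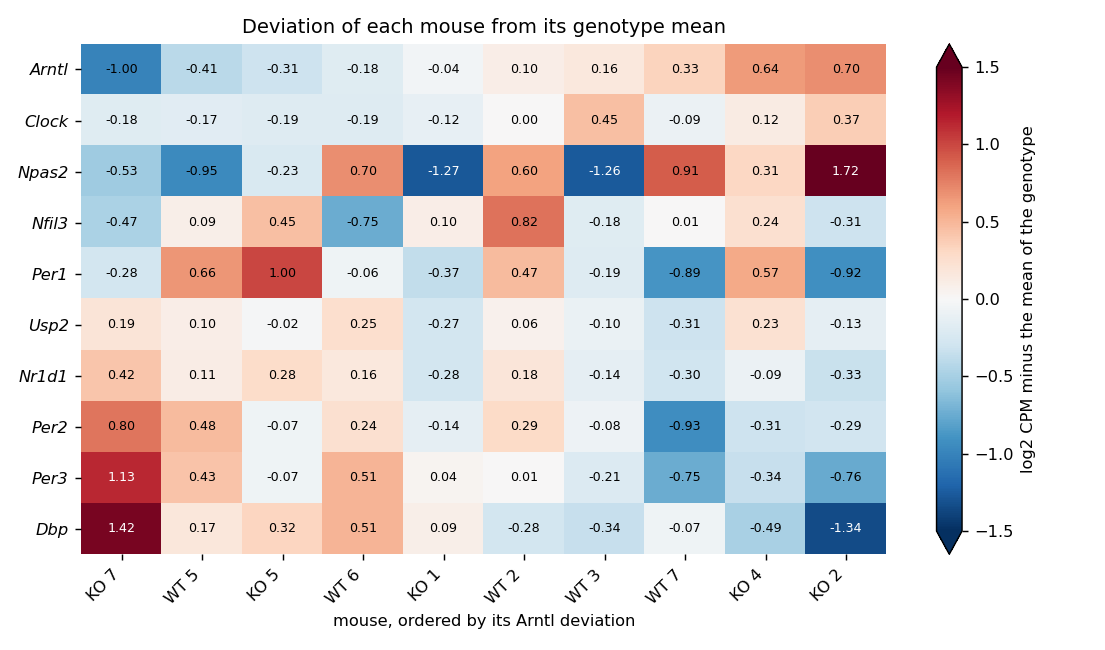
Deviation of each mouse from the mean of its genotype in log2 CPM, for the 10 members (rows) and 10 mice (columns, ordered by their Arntl deviation; KO, ΔGm15551; WT, wild type). From left to right Arntl goes from -0.995 to 0.705 while Dbp goes from 1.42 to -1.34 and Per3 from 1.13 to -0.76.

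The strongest opposition was that of Arntl and Dbp (Pearson's r = -0.921, exact permutation p = 0.00271, adjusted p = 0.0269; Spearman's rho = -0.915, exact permutation p = 0.00424, adjusted p = 0.0431; n = 10 mice). In 10 of 10 mice the 2 genes lay on opposite sides of their genotype means. Without the 2 mice farthest from the median of Arntl, ΔGm15551 replicates 2 and 7, r was -0.811. Arntl was likewise opposed to Per3 (r = -0.904, exact permutation p = 0.000694, adjusted p = 0.0156; rho = -0.891, exact permutation p = 0.00299, adjusted p = 0.0431) and to Per2 (r = -0.773, exact permutation p = 0.000278, adjusted p = 0.0125; rho = -0.842, exact permutation p = 0.00201, adjusted p = 0.0431). Without the same 2 mice, r was -0.737 for Per3 and -0.641 for Per2. Clock, the partner of BMAL1, was opposed to Dbp (r = -0.746, exact permutation p = 0.00486, adjusted p = 0.0312; rho = -0.915, exact permutation p = 0.00167, adjusted p = 0.0431), with r = -0.783 without its 2 farthest mice.

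On the other arm, Per2 and Per3 moved together (r = 0.904, exact permutation p = 0.00139, adjusted p = 0.0208; rho = 0.842, exact permutation p = 0.00479, adjusted p = 0.0431), as did Per3 and Dbp (r = 0.859, exact permutation p = 0.00451, adjusted p = 0.0312; rho = 0.842, exact permutation p = 0.00868, adjusted p = 0.0558). Nr1d1 moved with Per3 (r = 0.800, exact permutation p = 0.00750, adjusted p = 0.0422; rho = 0.709, exact permutation p = 0.0428, adjusted p = 0.193) and with Per2 (r = 0.794, exact permutation p = 0.00299, adjusted p = 0.0269; rho = 0.794, exact permutation p = 0.00729, adjusted p = 0.0547). Each r was read again without the 2 mice farthest from the median of 1 gene of the pair. That gene was Per2 in the pairs of Per2 with Per3 and with Nr1d1, and Per3 in the others. These 4 values of r were 0.698, 0.610, 0.599 and 0.580. By rank alone, Per3 with Dbp and Nr1d1 with either gene therefore did not pass after adjustment.

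**Figure D4:**
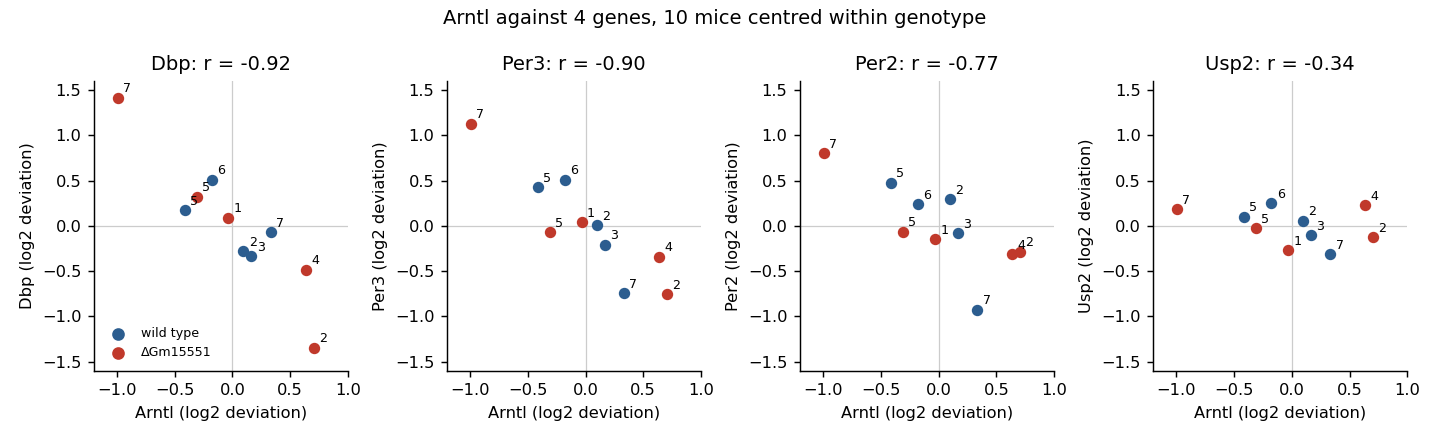
Arntl (x axis) against Dbp, Per3, Per2 and Usp2 (y axes), each as the log2 deviation from the genotype mean in 10 mice, with replicate numbers. The points fall along a descending line for Dbp (r = -0.92), Per3 (r = -0.90) and Per2 (r = -0.77), and form no clear line for Usp2 (r = -0.34). ΔGm15551 replicates 7 and 2 are at the ends of the Arntl axis, and the lowest Per2 point is wild type replicate 7.

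How far these pairs rest on single mice was examined next. The sign of all 8 pairs was the same in each of 18 alternatives, yet the number that passed was 0 without ΔGm15551 replicate 2 and 0 without ΔGm15551 replicate 7, the mice at the ends of the Arntl range. Across the omissions of single mice, r of Arntl and Dbp stayed between -0.941 and -0.830, and r of Arntl and Per3 between -0.941 and -0.797. The weakest r of Arntl and Per2 was -0.596, without ΔGm15551 replicate 7, and that of Clock and Dbp was -0.592, without ΔGm15551 replicate 2. The 4 positive pairs were weakest without ΔGm15551 replicate 7, at 0.840 (Per2 with Per3), 0.697 (Per3 with Dbp), 0.673 (Per3 with Nr1d1) and 0.678 (Per2 with Nr1d1). Fewer pairs also passed without wild type replicate 3 (4 pairs) and without ΔGm15551 replicate 5 (3), and 5 passed without ΔGm15551 replicate 1, wild type replicate 5 or wild type replicate 7. In the 7 mice left without wild type replicates 5, 6 and 7, r was -0.962 for Arntl with Dbp and -0.933 for Arntl with Per3. For the other 6 pairs r was -0.876 (Arntl with Per2), -0.754 (Clock with Dbp), 0.938 (Per2 with Per3), 0.961 (Per3 with Dbp), 0.752 (Per3 with Nr1d1) and 0.791 (Per2 with Nr1d1). There 0 pairs passed after adjustment, where 240 reorderings allow no p under 0.00417.

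Muscle RNA and depth also varied among these mice. The muscle score (mean log2 CPM of the 10 muscle genes) was -2.06 in ΔGm15551 replicate 2 and -1.97 in replicate 7. Within genotype, r of the members with this score ran from -0.529 (Per2) to 0.549 (Nfil3) over the 10 mice, given as a description. With log2 depth, r was 0.620 for Usp2, 0.606 for Per2, 0.600 for Per3 and -0.657 for Nfil3, and between -0.366 and 0.321 for the other 6 members. With the muscle score taken out besides genotype, 6 pairs passed, 5 of them among the 8, and with log2 depth taken out 6 pairs passed, again 5 of them among the 8. Without the 3 mice richest in muscle RNA (ΔGm15551 replicates 1 and 4 and wild type replicate 7), 0 pairs passed, where 144 reorderings allow no p under 0.00694. The part of muscle RNA and depth in the correlations was not tested further.

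For Usp2 no such partner passed the test. Of its 9 pairs, 0 passed after adjustment and 1 had an unadjusted p under 0.05. That pair was Usp2 with Nr1d1 (r = 0.712, exact permutation p = 0.0380, adjusted p = 0.142, and rho = 0.661, exact permutation p = 0.0585, adjusted p = 0.202). Without the 2 mice farthest from the median of Nr1d1, that r was 0.669. The r of Usp2 was 0.667 with Per2, 0.621 with Per3, 0.552 with Per1, 0.369 with Dbp and -0.343 with Arntl (adjusted p of 0.199, 0.217, 0.281, 0.571 and 0.571, exact permutation tests). The values of rho in the same order were 0.539, 0.564, 0.576, 0.370 and -0.394 (adjusted p of 0.320, 0.290, 0.279, 0.493 and 0.463, exact permutation tests). Without the 2 mice farthest from the median of the other gene of each pair, r of Usp2 in that order was 0.152, 0.568, 0.678, 0.0834 and -0.0692. The mice farthest from the median of Usp2 were not left out in this way. Usp2 and Dbp had nearly the same log2FC, but their correlation within genotype did not pass the test.

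Per1, Nfil3 and Npas2 likewise had no pair past the adjusted threshold.

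The patterns were then set among all genes. The 13090 other genes averaging 1 CPM or more were ranked by Pearson's r to Arntl over the 10 mice (log2 CPM centred within genotype), as a measure of likeness with no test. Among the lowest were Dbp (r = -0.921, rank 1 from the low end), Tef (-0.920), Per3 (-0.904) and Dvl2 (-0.894), a gene of Wnt signalling. The clock repressor Ciart followed at rank 6 (r = -0.891), and Cry2 was at rank 28 (-0.811), Nr1d1 at 32 (-0.791), Per2 at 44 (-0.773) and Nr1d2 at 64 (-0.749) from the same end. Over all ranked genes 0.886% had an r under -0.7, against 4 of the 20 further clock genes, Tef, Ciart, Cry2 and Nr1d2. At the high end were Anapc4 (r = 0.893), Dtx4 (0.890), Arap2 (0.889), Wdr76 (0.882) and Gm15471 (0.881), while Clock was at rank 153 (0.665) and Cry1, the cryptochrome gene that is known to lag the other repressors, at rank 255 (0.610).

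**Figure D5:**
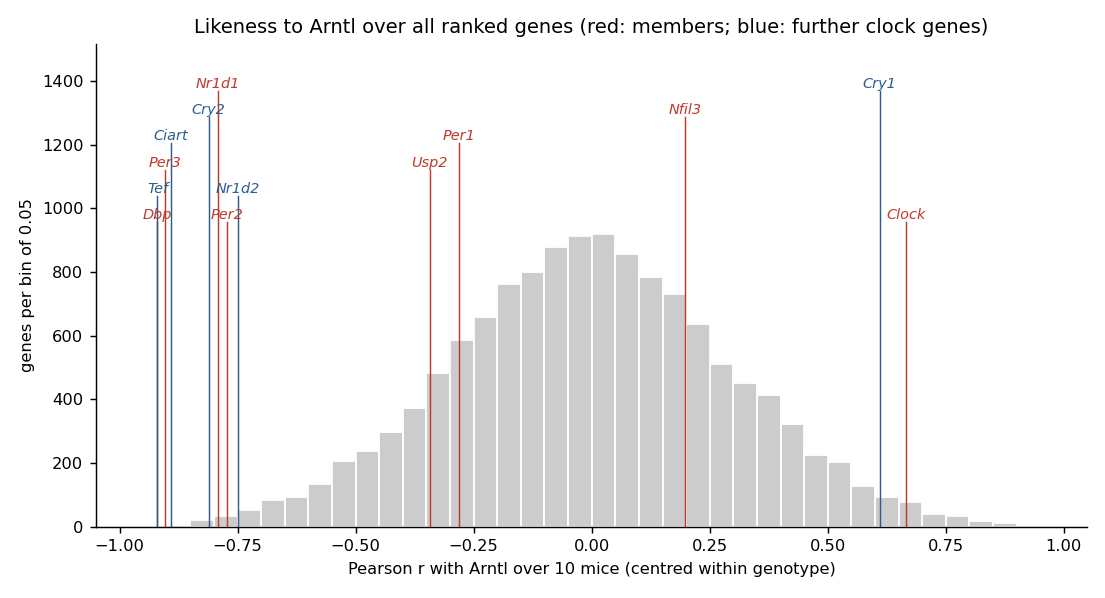
Distribution of Pearson's r with Arntl over 10 mice for 13090 genes (grey bars, genes per bin of r), with members (red) and further clock genes (blue) marked as lines whose heights only separate the names. Dbp, Tef, Per3 and Ciart sit at the low end of the distribution, Clock (0.665) and Cry1 (0.610) on the high side, and Usp2 (-0.343), Per1 (-0.281) and Nfil3 (0.198) inside its bulk.

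The same ranking for Usp2 brought up other genes. The 5 highest were Samd14 (r = 0.925), Gm45909 (0.922), Ing3 (0.921), Phf19 (0.904) and Ttc7b (0.90), and the 5 lowest Chek2 (-0.941), Ptk2 (-0.927), Olfr635 (-0.914), Rgs19 (-0.905) and Pou2f2 (-0.905). No member was among them. The best placed was Nr1d1 at rank 532, followed by Per2 at 908, Per3 at 1323, Per1 at 2015 and Dbp at 3824 of 13090. Over 10 mice so many genes yield values of r of this size that the order at the ends is a description only.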

How the data were processed

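Poly A RNA from iBAT of 10 mice was sequenced in paired-end reads. Per the study's methods, cutadapt removed low-quality reads and salmon assigned the rest to the GENCODE M22 transcriptome (GRCm38), or M22 joined with RNAcentral. The deposited values of the authors are therefore estimated counts (expected counts) per gene, given as whole numbers with no scaling, and tool versions, the step to genes and the strand setting are not given in the sources used here.

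Counts were analysed in R 4.3.3. Genes were kept by filterByExpr (minimum count 10, minimum total count 15) plus Gm15551, leaving 13733. edgeR 4.0.16 fitted a quasi-likelihood model (TMM, robust, genotype only), with Benjamini-Hochberg over all genes and a threshold of 0.05. The SE came from the F statistic. log2 CPM had a prior count of 2. Correlations used NumPy 2.4.6. Depth was 9680976 to 15771170 counts per mouse, and shallow genes such as Npas2 are the least precise. Whether mice share a litter is not given, and p-values measure the spread between these mice.

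The alternatives were DESeq2 1.42.0, its size factors, limma-voom 3.58.1, no filter on low counts, omission of each mouse, a replicate block, omission of wild type replicates 5, 6 and 7, a muscle score covariate and, for the pairs, a prior count of 0.5, library totals, no centring and ranks. Depth residuals, omission of the 3 muscle-rich mice and the fit of 6 mice with no block term were added once the data had been seen. The scripts were tested on simulated data. Positions, merged exons and overlaps came from GENCODE M21 (GRCm38; 98.1% of the gene IDs matched) and promoters from RefSeq (GRCm38.p6). In 31-base words, at most 0.466% of any member's transcripts occurred in another gene.

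The members and lists were chosen with earlier results of these data known. By rule, the genes named were Gm15551, the members, listed genes with an unadjusted p under 0.05 or the 2 with the smallest p, those highest and lowest per length in each role, the 5 most and least like Usp2 and Arntl, the strongest pairs, and Ucp1. Cry1, Cry2, Ciart, Cdkn1a, the brown adipocyte markers besides Ucp1 and the genes named for the fit without ΔGm15551 replicate 7 were added after their values were seen. Some genes that the rule names are not reported here. Other marker lists were summed as shares of counts: common adipocyte genes took 2.15% to 2.73%, endothelial genes 0.0606% to 0.116%, red blood cell genes 0.0646% to 0.256%, immune cell genes at most 0.00122% and nerve genes at most 0.00825%.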

Additional observations from a re-analysis of the deposited data

Results flagged for a closer look

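Over the CPM of the 10 members, 20 groups of 5 mice were examined for a value far from the rest by Dixon's ratio (critical value 0.71), and 4 were found, where about 1 in 20 groups, here 1, is found by chance. Of these, 2 came from ΔGm15551 replicate 7 and are not independent of each other: Per2 at 41.9 CPM (ratio 0.842; the next ΔGm15551 mouse had 22.9) and Per3 at 34.2 CPM (ratio 0.727; the next had 16.0). Npas2 was at 3.41 CPM in ΔGm15551 replicate 2 (ratio 0.712; the next had 1.19), on 48 counts. Clock was at 55.8 CPM in wild type replicate 3 (ratio 0.757; the next had 40.6).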

How the results depend on the processing

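The number of genes called was 0 over all genes, over the further clock genes and over the glucocorticoid-induced genes as reported and in each of 18 alternatives, with 169 to 869 genes over all at an unadjusted p under 0.05. The fit with the replicate number as a block, in the 6 mice whose numbers occur in both groups, also called 0 genes, with 398 at an unadjusted p under 0.05 against 554 in the same 6 mice without the block. The deviations of same-numbered mice correlated at -0.07, 0.05 and -0.43, so the numbers were not taken as pairs. In the 6 mice of the block, the log2FC with and without the block was 0.21 and 0.34 for Arntl (0.51 in all mice), -0.07 and -0.07 for Per2 (-0.24), 0.31 and 0.32 for Nfil3 (0.69), -0.33 and -0.16 for Per3 (-0.42) and -0.54 and -0.18 for Dbp (-0.50). The sign of each member's log2FC was the same in all 18 alternatives except in Clock (14 of 18), Per1 (13) and Nr1d1 (17). The number of correlated pairs, 8, was 7 with library totals, 4 without centring by genotype, 5 by Spearman's rho, 0 without wild type replicates 5, 6 and 7, and 0 without the 3 mice richest in muscle RNA (ΔGm15551 replicates 1 and 4 and wild type replicate 7), where 144 reorderings remained. It ran from 0 to 8 when single mice were left out, with 0 without ΔGm15551 replicate 2 and without ΔGm15551 replicate 7. With 5 mice a group, counts of 1 to 48 leave Npas2 too imprecise for its estimate to be read.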

Other observations

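Further values of genes from the clock and glucocorticoid lists are given here with no test. Arntl2, the paralog of Arntl, had an r of 0.00581 to Arntl itself over the 10 mice and of -0.788 to Usp2, rank 121 from the low end of 13090 genes. Cdkn1a, the p21 gene, was at 0.737 to Arntl (rank 74 from the high end) and Wee1, another cell cycle gene with a known daily rhythm, at -0.686 (rank 138 from the low end). Bhlhe40 had the widest range of the clock repressors, from 16.3 CPM in ΔGm15551 replicate 5 to 149.8 CPM in ΔGm15551 replicate 7.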
